A study of Bos taurus with 16 samples.

Results

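The levels of 10 genes of lipid droplets and fatty acid metabolism were followed through the transcriptomes of bovine blastocysts: *PLIN2*, *PLIN3*, *ACSL3*, *ACSL4*, *SCD*, *FASN*, *ACACA*, *FABP3*, *FABP5* and *DGAT1*. They were taken by gene symbol from count tables of 22358 loci. Of the 10 symbols, 9 had a row, with 1 locus each, and *SCD* had none under that symbol and was not analysed here. The embryos were expanded blastocysts of Holstein dairy cows, 4 cows on a control diet and 4 on a methionine-rich diet, and each cow gave 2 pools of embryos. Both treatments were fed 1 basal diet from calving until embryo collection, to which a methionine product protected from breakdown in the rumen was added in the methionine-rich treatment. The sample labels call the material IVF embryos, whereas the study's methods describe embryos flushed from superovulated and inseminated cows. Embryos of 1 cow were pooled, so values of single blastocysts were not measured. Pools are named by treatment, cow and pool number, so that C2.1 is the first pool of control cow 2.

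Cattle oocytes and early embryos are rich in lipid droplets, which store triacylglycerol and sterol esters under a coat of perilipins. Fatty acids are made from acetyl units by acetyl-CoA carboxylase (*ACACA*) and fatty acid synthase (*FASN*). Long-chain acyl-CoA synthetases (*ACSL3*, *ACSL4*) activate them, fatty acid binding proteins (*FABP3*, *FABP5*) carry them through the cytosol, and *DGAT1* joins the last fatty acid to a triacylglycerol. Stored fat is released again by lipases and burned in mitochondria and peroxisomes.

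RNA was amplified before sequencing, and the totals of counted reads ranged from 5624126 to 7826542 in 15 of the 16 pools. A floor of 3 counts equals between 0.383 and 0.533 CPM in these pools (CPM, counts scaled to the total of each pool), which covers counting error only. Pool C3.2 had a total of only 1745048. It was left out of means and tests, as the methods did for its few reads on exons. Of 8 trophectoderm markers with a row, 6 passed the floor in at least 1 pool, and their summed level ranged from 3270 to 7847 CPM in control and from 2284 to 5952 CPM in methionine-rich pools. All 4 inner cell mass markers passed it (35.4 to 115 CPM in control and 34.0 to 82.8 CPM in methionine-rich pools). So did 3 of 5 hypoblast markers (1070 to 3922 and 1051 to 3417 CPM), while *SOX17* was at 0 and *GATA4* at no more than 3 counts. Most of the hypoblast sum was *FN1* (28804 counts in C4.2), with at most 1221 counts of *GATA6* and 1750 of *PDGFRA* in any of the 15 pools. Pool C2.1 stood apart in its leukocyte markers. Their summed level was 2491 CPM in C2.1 and between 0.824 and 37.6 CPM in the other 14 pools. Pool C2.1 also had the highest sum of uterine epithelium markers, 227 CPM against 0 to 41.0 CPM elsewhere, nearly all of it from *SPP1*. The other members did not follow. *FOXA2*, *PGR* and *MUC1* were highest in M8.2, M6.1 and M7.2 (300, 183 and 18 counts), against 5, 0 and 0 counts in C2.1. *PAEP* and *OXTR* were at 0. Of the adipocyte markers, *ADIPOQ* and *CIDEC* were at 0 and *LEP* and *PLIN1* at no more than 1 count in any of the 15 pools, and the list summed to at most 14.6 CPM. Erythrocyte markers reached at most 45.5 CPM, mostly from *ALAS2* (337 counts in M8.2). *HBA*, *HBA1* and *HBB* had at most 3 counts in any of the 15 pools, and *AHSP* and *SLC4A1* at most 8. Cumulus or granulosa markers reached 58.1 CPM in C4.2, mostly from *CYP19A1* (443 counts). *LHCGR* reached 252 counts in M8.1 and *INHBA* 148 in C2.1, while *INHA* was at 0.

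The question asked of these genes was whether their mRNA levels differed between embryos of cows on the control and on the methionine-rich diet. In 8 of the 9 genes no difference was called, and the ninth, *FABP5*, was called lower in methionine-rich pools on the strength of a single control pool. Treatments were compared over 10519 loci with the exact test of edgeR, and a locus was called where the false discovery rate (FDR) was under 0.1 and levels differed at least 2-fold. The 9 genes thus gave 1 call, beside 1.05% of all loci called in either direction and 0.77% called lower in methionine-rich pools. With the quasi-likelihood test of edgeR none of the 9 was called, and neither was any other locus (0.0%). In that test 909 loci (8.64%), and 1 of the 9 genes, had an unadjusted p under 0.05. The log2 fold change, methionine-rich over control, was positive for 2 genes and negative for 7 (53.5% of all loci were negative), with a median of -0.21 against -0.05 over all loci tested. For 7 of the 9 genes it lay within 2-fold, as it did for 75.3% of all loci. Cows are the independent units here, so levels averaged over the pools of a cow were also compared by an exact permutation test, in which the smallest possible p is 0.0286 over 70 assignments. In none of the 9 genes did the cows of the 2 treatments separate without overlap, which 2.37% of all loci did. Random assignment of cows would give such a separation with a probability of 0.0286, so that share is not an excess.

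**Figure D1:**
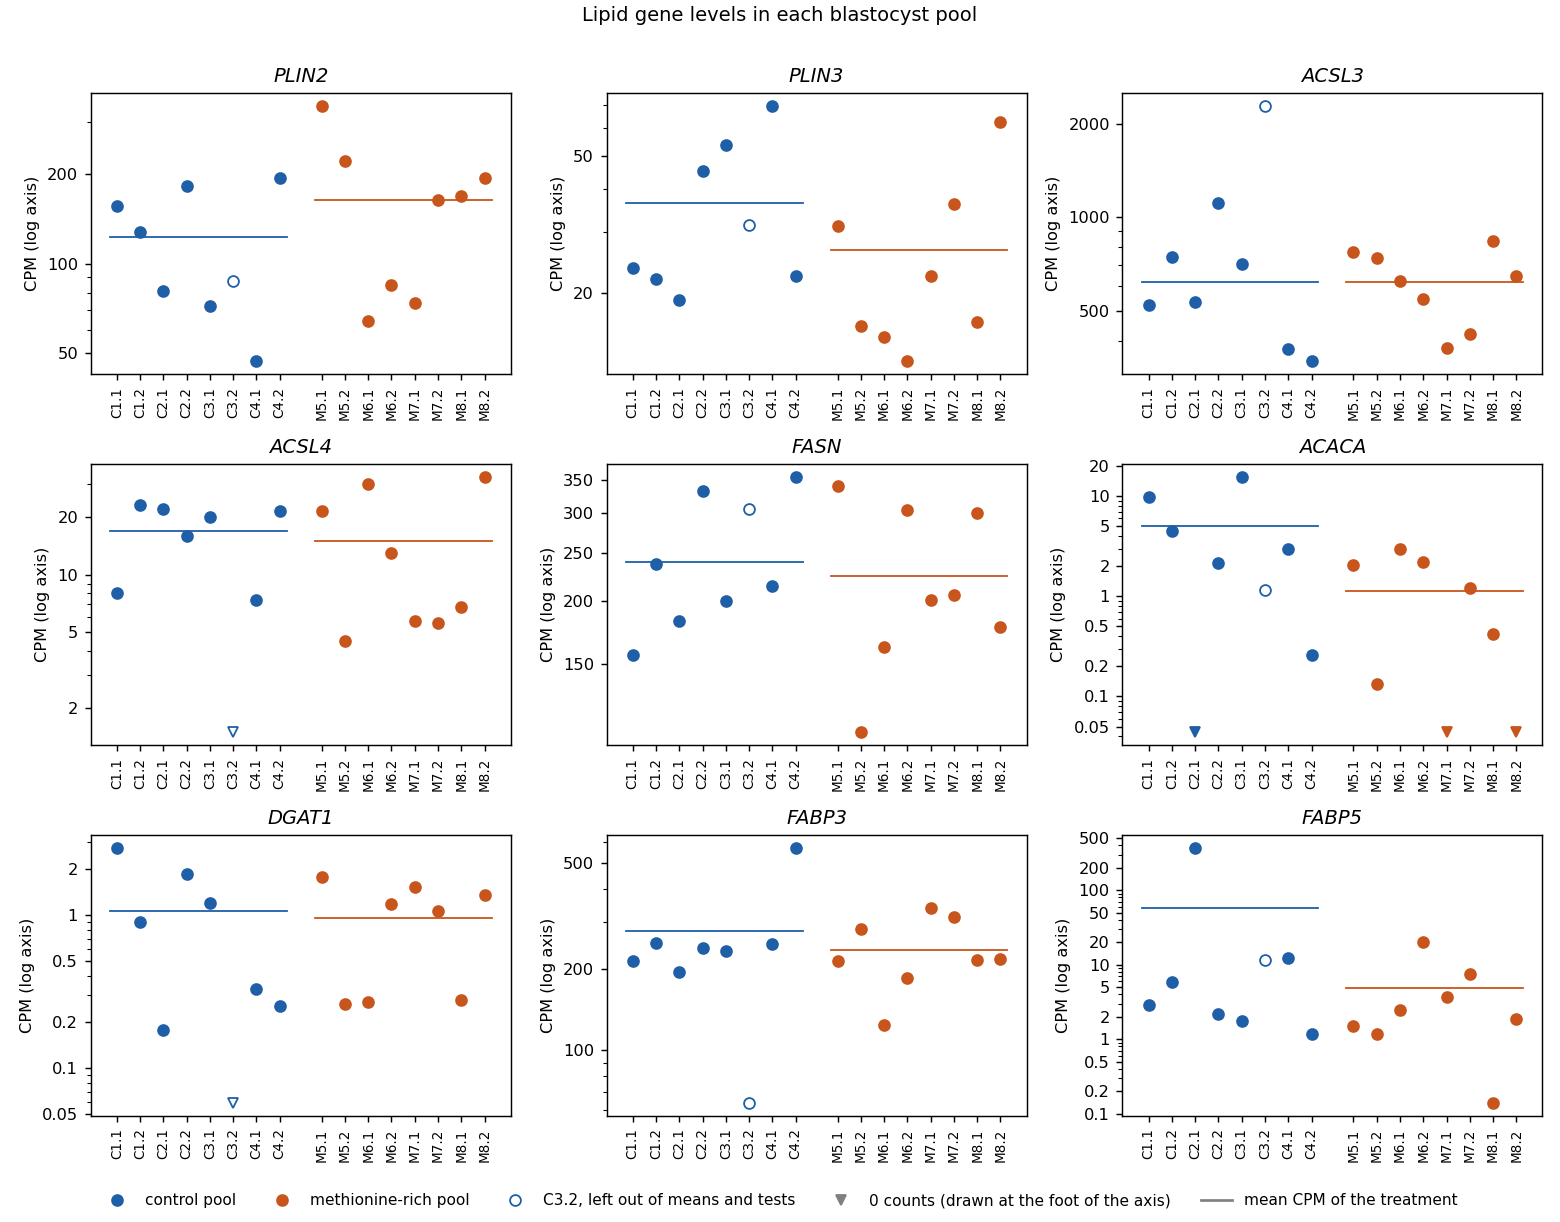
Level of each of the 9 lipid genes in each pool, in CPM on a log axis, with control pools in blue, methionine-rich pools in orange and the mean of each treatment as a line. Pools of the treatments overlap in every panel, and FABP5 in C2.1 (374 CPM) lies far above its other pools. Open symbols are pool C3.2, and triangles mark 0 counts.

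The droplet coat was represented by both perilipins that most cells express. *PLIN2*, which coats droplets constitutively and is stabilised by them, ranged from 47.0 to 194 CPM over the 7 control pools, with a median of 128 CPM. In the 8 methionine-rich pools its level ranged from 64.2 to 339 CPM, with a median of 166 CPM. The ranges overlapped broadly, and 3 methionine-rich pools, both of cow 5 and M8.2 (339, 221 and 194 CPM), lay above all control pools, M8.2 only just. Means were 123 ± 57.6 CPM (SD, n = 7) and 164 ± 92.0 CPM (SD, n = 8). In the edgeR exact test the log2 fold change was 0.39, with an FDR of 0.969, and DESeq2 gave 0.40 ± 0.35 (SE). By cow the difference was 0.42 on the log2 scale (exact permutation p = 0.371).

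*PLIN3*, a coat protein that moves between cytosol and nascent droplets, lay between 19.0 and 69.7 CPM in control pools, with a median of 23.6 CPM. In methionine-rich pools it lay between 12.6 and 62.7 CPM, with a median of 19.4 CPM. Each treatment had a few high pools, C4.1 and C3.1 (69.7 and 53.9 CPM) in control and M8.2 (62.7 CPM) in methionine-rich. The 4 lowest pools (12.6 to 16.4 CPM) were all methionine-rich, from cows 5, 6 and 8, but the other pools of cows 5 and 8 stood higher. Its log2 fold change of -0.46 had an FDR of 0.975 in the edgeR exact test (DESeq2 -0.44 ± 0.44, SE), and the difference by cow was -0.60 (exact permutation p = 0.229). With the number of blastocysts in a pool as a covariate in the quasi-likelihood test the estimate was 0.03. The direction was thus not fixed. By the study's supplement, most methionine-rich pools held more blastocysts than any control pool, so this covariate is partly tied to treatment.

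Of the acyl-CoA synthetases, *ACSL3* is the one found on nascent droplets. Its level ran from 343 to 1109 CPM in control pools, with a median of 533 CPM, and from 378 to 838 CPM in methionine-rich pools, with a median of 635 CPM. The highest and the lowest of the 15 values were both from control pools, C2.2 and C4.2. Means were 619 ± 263 CPM (SD, n = 7) and 621 ± 165 CPM (SD, n = 8). Treatments differed by a log2 fold change of 0.01 (edgeR exact test, FDR of 1), DESeq2 gave 0.02 ± 0.26 (SE), and the cow difference was 0.005 (exact permutation p = 0.971). Pool C3.2 held 2284 CPM of *ACSL3*, above all other pools, and with all 16 pools the log2 fold change was -0.75, again not called (FDR of 0.631, edgeR exact test).

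*ACSL4*, which favours arachidonic acid, ranged from 7.42 to 23.2 CPM in control pools, with a median of 20.2 CPM. In methionine-rich pools it ranged from 4.49 to 32.7 CPM, with a median of 9.89 CPM. The methionine-rich pools split widely, with both the 2 highest values (M8.2 and M6.1, 32.7 and 29.8 CPM) and the 4 lowest (M5.2, M7.1, M7.2 and M8.1, 4.49 to 6.82 CPM) among all 15. Both pools of cow 7 were low, while the 2 pools of cow 5, and those of cow 8, lay far apart. Between treatments the log2 fold change was -0.22 with an FDR of 1 in the edgeR exact test (DESeq2 -0.21 ± 0.51, SE), and the cow difference was -0.50 (exact permutation p = 0.314). No read of this gene was counted in C3.2, where a count of 0 allows up to 1.72 CPM.

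For fatty acid synthesis, *FASN* varied least in log2 CPM among the 9 genes. It ranged from 156 to 355 CPM in control pools, with a median of 215 CPM, and from 109.6 to 340.2 CPM in methionine-rich pools, with a median of 204 CPM. The methionine-rich extremes were the 2 pools of 1 cow, M5.1 and M5.2. Means were 239.9 ± 75.4 CPM (SD, n = 7) and 225 ± 80.7 CPM (SD, n = 8), with a log2 fold change of -0.10 (edgeR exact test, FDR of 1; DESeq2 -0.08 ± 0.24, SE). Cows differed by -0.11 (exact permutation p = 0.514).

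*ACACA*, the enzyme that supplies malonyl-CoA to *FASN*, was counted far less evenly. Control pools held between 0 and 116 counts, that is 0 to 15.6 CPM with a median of 2.97 CPM. Methionine-rich pools held between 0 and 22 counts, or 0 to 2.998 CPM with a median of 0.817 CPM. The 3 highest pools, C3.1, C1.1 and C1.2 (15.6, 9.76 and 4.50 CPM), were all control, but C2.1 was at 0 and C4.2 at 2 counts, and only 9 of the 15 pools exceeded the floor. Pool C3.1 alone held 36.7% of the counts. The mean was 5.04 ± 5.71 CPM (SD, n = 7) in control and 1.13 ± 1.17 CPM (SD, n = 8) in methionine-rich pools. A log2 fold change of -2.28 was outside 2-fold but not called, with an unadjusted p of 0.0529 and an FDR of 0.599 in the edgeR exact test. DESeq2 gave -2.30 ± 1.14 (SE), and by cow the difference was -1.86 (exact permutation p = 0.2). Its sign was negative under all 18 alternative settings that tested it, with log2 fold changes from -4.70 to -1.67 and adjusted p from 0.228 to 0.993 (edgeR, DESeq2 or limma). These settings reuse largely the same pools, so the constant sign is not separate evidence of a lower level.

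*DGAT1*, which makes triacylglycerol, was at the edge of detection, with 1 to 21 counts in control and 2 to 13 counts in methionine-rich pools. Control levels ran from 0.178 to 2.77 CPM (median 0.900 CPM), and methionine-rich levels from 0.264 to 1.79 CPM (median 1.12 CPM). Low and high pools occurred in both treatments, and 9 of 15 pools exceeded the floor. Its log2 fold change was -0.15 (edgeR exact test, FDR of 1; DESeq2 -0.14 ± 0.85, SE), and the cow difference was -0.06 (exact permutation p = 0.943). With an SE of that size, a difference of 2-fold in either direction could not be told from none. Power was not tested for any of the 9 genes, so an uncalled gene was not shown to be equal between treatments.

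Of the fatty acid binding proteins, *FABP3*, the heart-type form, was present in every pool. It ranged from 196 to 569 CPM in control pools, with a median of 240.3 CPM, and from 124 to 339.7 CPM in methionine-rich pools, with a median of 218 CPM. In control, 6 of the 7 pools lay within 196 to 250.1 CPM and C4.2 stood alone at 569 CPM. Among methionine-rich pools those of cow 7 were highest (339.7 and 315 CPM) and those of cow 6 lowest (124 and 186 CPM). *FABP3* had a log2 fold change of -0.21 (edgeR exact test, FDR of 1; DESeq2 -0.19 ± 0.28, SE) and a cow difference of -0.20 (exact permutation p = 0.543). Leaving out cow 4 changed the sign of the estimate, to 0.07. Pool C4.2, which set the *FABP3* maximum, also had the highest *FASN* of all pools, the highest *PLIN2* of the control pools and the lowest *ACSL3* of the 15 pools. Its sums of trophectoderm, inner cell mass and hypoblast markers were the highest among the 15 pools (7847, 115 and 3922 CPM, the last mostly *FN1*). Pool C3.2 had 6171 CPM of hypoblast markers. The relation of these values in C4.2 to each other was not tested.

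*FABP5*, the epidermal-type form, which is also abundant in macrophages, differed from the other 8 genes in that 1 pool held most of its reads. Pool C2.1 had 2102 counts, or 374 CPM, which was 83.3% of all counts of the gene over the 15 pools. The median over all loci tested was 19.5% in the top pool. The other 6 control pools held 9 to 75 counts, that is 1.16 to 12.4 CPM with a median of 2.53 CPM. The 8 methionine-rich pools held 1 to 119 counts, or 0.139 to 20.03 CPM with a median of 2.17 CPM. Apart from C2.1 the treatments overlapped, and the next highest pool, M6.2, was methionine-rich. The control mean was 57.1 ± 140 CPM (SD, n = 7) with C2.1 and 4.37 ± 4.25 CPM (SD, n = 6) without it, against 4.81 ± 6.55 CPM (SD, n = 8) in methionine-rich pools.

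The exact test of edgeR called *FABP5* lower in the methionine-rich treatment (log2 fold change -3.71, FDR of 0.0832). Without C2.1 the log2 fold change was 0.09 with an FDR of 1, and without both pools of cow 2 it was -0.09. With all 15 pools the quasi-likelihood test gave the same log2 fold change, -3.71, with an FDR of 0.323, and DESeq2, which can replace outlying counts of single pools, gave -0.64 ± 0.74 (SE) with an adjusted p of 0.946. By cow the difference was -1.07 (exact permutation p = 0.4). Fewer cells of a type and less RNA per cell cannot be told apart in pooled embryos.

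**Figure D2:**
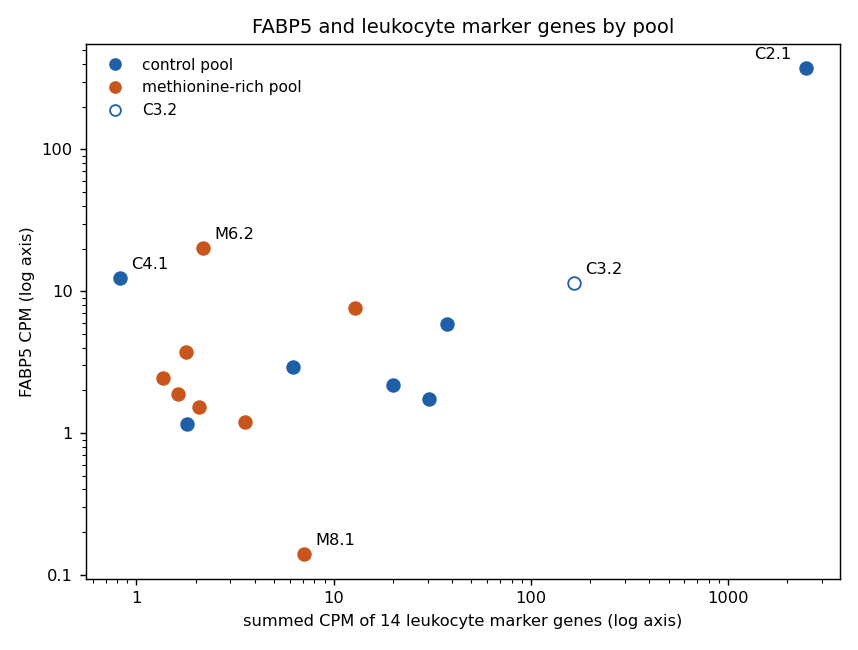
FABP5 level (vertical axis) against the summed level of 14 leukocyte marker genes (horizontal axis) in each pool, both in CPM on log axes, with control pools in blue, methionine-rich pools in orange and C3.2 open. Pool C2.1 is alone at the upper right, with 374 and 2491 CPM. The next highest marker sum is that of C3.2, 166 CPM, at 11.5 CPM of FABP5.

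Pool C2.1 was highest both in *FABP5* and in the leukocyte marker sum. Of the 14 markers, 12 passed the floor in at least 1 of the 15 pools and 9 of these had their highest count in C2.1, among them *LAPTM5* with 6969 counts there and up to 7 elsewhere, and *TYROBP* with 2122 and up to 4. *S100A9* was at 0 in all 15 pools, *S100A8* at 2 counts at most, and *PTPRC* was higher in M8.1 (48 counts) than in C2.1 (18 counts). *CD14* was higher in C2.2 (84 counts) and *FCER1G* in M8.2 (8 counts) than in C2.1 (5 counts each). Among the other pools *FABP5* did not follow the order of the marker sum. M6.2 had 20.03 CPM of *FABP5* with a marker sum of 2.19 CPM. C4.1 had 12.4 CPM with the lowest sum of all, 0.824 CPM. The part of leukocyte RNA in the *FABP5* level was not tested. The study counted uniquely mapped reads, so reads of *FABP5* and *FABP3* shared with near-identical copies could have been lost or misplaced. This was not examined, so the levels of both genes are uncertain to that extent.

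**Figure D3:**
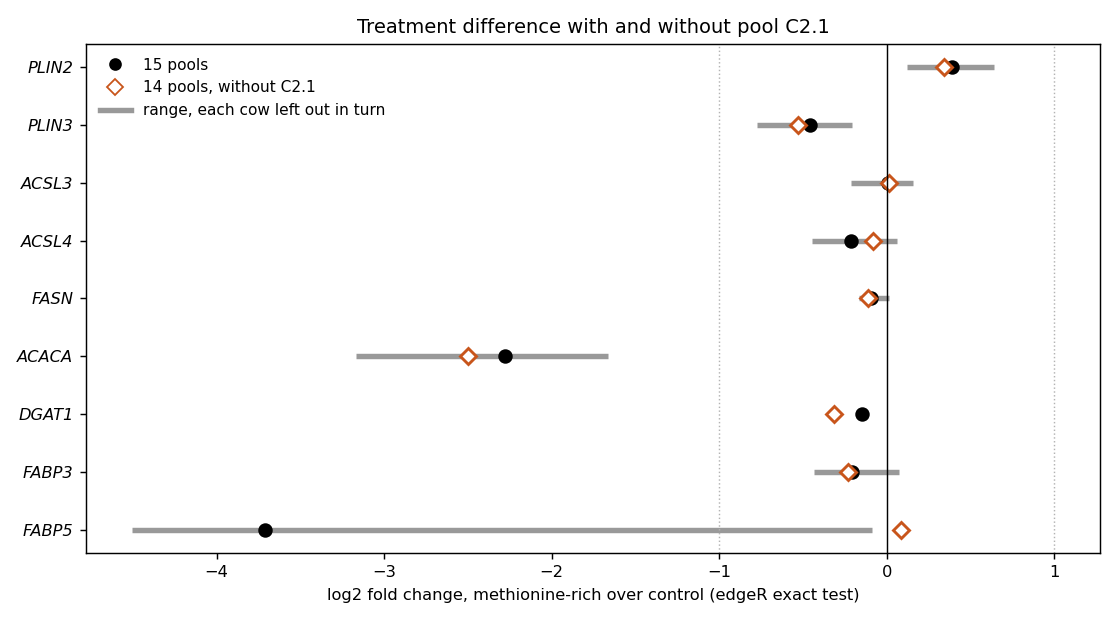
Log2 fold change of each gene, methionine-rich over control, from the edgeR exact test with 15 pools (black), with 14 pools without C2.1 (open orange) and as the range when each cow was left out in turn (grey). FABP5 moves from -3.71 to 0.09 when C2.1 is left out, ACACA stays at -1.67 or below throughout and the other 7 genes stay within 1 of 0. Dotted lines mark 2-fold. DGAT1 has no grey range because it fell below the filter on low counts whenever a cow was left out.

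The lipid genes were not high as a group in C2.1. That pool had the lowest *PLIN3*, *FABP3* and *DGAT1* of the control pools and no count of *ACACA*, while its *PLIN2* (80.7 CPM), *ACSL3* (533 CPM), *ACSL4* (22.0 CPM) and *FASN* (183 CPM) lay inside the control range. Leaving it out left the other 8 genes uncalled. The summed level of the 9 genes ran from 979 to 1932 CPM in control pools, with a median of 1407 CPM, and from 1025 to 1727 CPM in methionine-rich pools, with a median of 1252 CPM.

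The genes differed in how far pools of the same cow agreed. The mean absolute difference between the 2 pools of a cow was 0.38 on the log2 scale for *ACSL3* and 0.45 for *FABP3*, compared with 0.58 and 0.61 between pools from separate cows within a treatment. *PLIN2* gave 0.65 within and 0.90 between cows. In *FASN* (0.69 and 0.50), *ACSL4* (1.33 and 1.06), *DGAT1* (1.24 and 1.04) and *FABP5* (2.56 and 2.41) the 2 pools of a cow differed more than pools of different cows. The within-cow difference was the smaller for 5 of the 9 genes and for 50.3% of all loci, and the medians over all loci were 1.25 within and 1.32 between cows, from 7 and 42 pairs of pools. These are descriptions of few pairs, without a test.

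**Figure D4:**
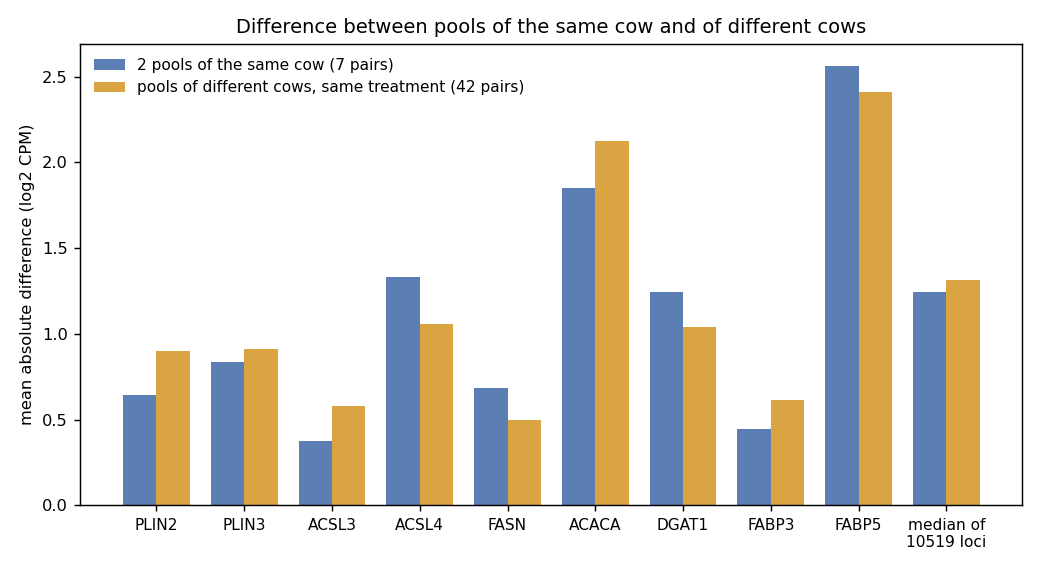
Mean absolute difference in log2 CPM between 2 pools of the same cow (blue, 7 pairs) and between pools from separate cows within a treatment (yellow, 42 pairs) for each gene and as the median over all 10519 loci tested. The within-cow bar is the lower for PLIN2, PLIN3, ACSL3, ACACA and FABP3, and FABP5 has the tallest bars (2.56 and 2.41).

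Against loci of a like mean level, within 0.5 on the log2 scale, *FASN* varied little over the pools. The SD of log2 CPM was 0.44 for *FASN*, and 83.1% of 408 loci of like level had a larger one. For *DGAT1* it was 0.92, with a larger SD in 98.0% of 1378 loci. At so low a level the filter on summed CPM favours loci that are high in a few pools. The comparison therefore cannot show that *DGAT1* varied little, and its highest pool was 15.6 times its lowest in CPM. *FABP5* was at the other end, with an SD of 2.28 and a larger one in 8.87% of 1218 loci. *PLIN2* (0.73) also lay above the median of its level (0.64), as did *ACACA* (1.79 against 1.70), whereas *PLIN3*, *ACSL3*, *ACSL4* and *FABP3* lay below theirs.

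The same comparison was read for 111 further genes of lipid metabolism in 6 lists. Of these, 108 had a row, in 111 loci, and 69 loci passed the filter on low counts. None of the 69 was called by the exact test of edgeR, beside the 1.05% of all loci, and 5 (7.25%) had an unadjusted p under 0.05, against 8.54% of all loci in the same test. The quasi-likelihood test and DESeq2 also called none. Of the 69, 42 log2 fold changes were positive and 27 negative (53.5% negative over all loci), with a median of 0.08, and 53 lay within 2-fold. By list, the median was -0.22 over 7 tested loci of droplet coat, assembly and lipolysis, 0.04 over 10 of glycerolipid and sterol ester synthesis, 0.08 over 13 of fatty acid synthesis, elongation and desaturation, 0.21 over 7 of uptake, binding and activation, 0.18 over 23 of oxidation and -0.05 over 9 regulators.

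**Figure D5:**
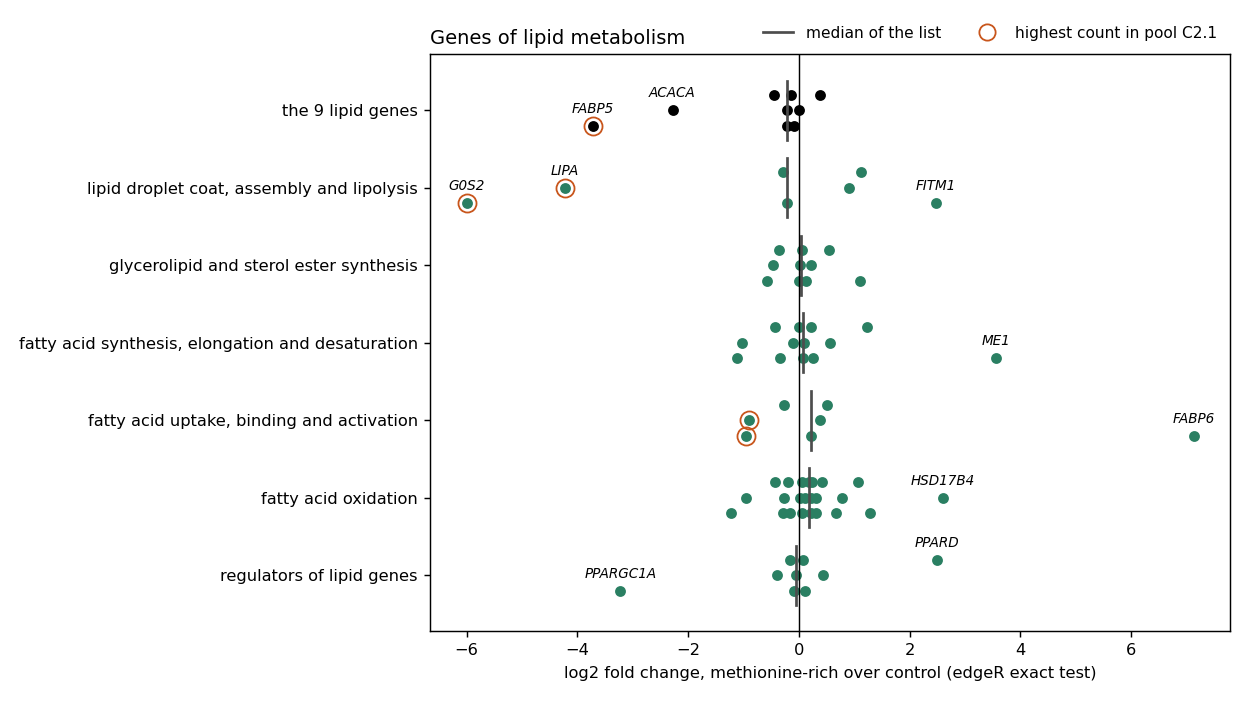
Log2 fold change, methionine-rich over control (edgeR exact test), of the 9 lipid genes (black) and of 69 further lipid metabolism loci in 6 lists (green), with the median of each list as a bar. Most points lie near 0, and 4 of the 69, ringed in orange, have their highest count in pool C2.1. The loci beyond 2 on either side are named.

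Of the 111 loci, 17 never exceeded 3 counts in any of the 15 pools. The other perilipins of the lists, named after their values were seen, were at 0 (*PLIN4*), at 1 count at most (*PLIN1*) and at 4 counts at most (*PLIN5*).

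In the droplet and lipolysis list, as with *FABP5*, C2.1 held most counts of *LIPA* and *G0S2*. *LIPA*, the lysosomal acid lipase, was counted 4806 times in C2.1, up to 32 times in any other control pool, and between 0 and 123 times in methionine-rich pools. Its level was 854.5 CPM in C2.1, which held 90.8% of its counts, and the medians were 0.750 CPM in control and 6.43 CPM in methionine-rich pools. Its log2 fold change was -4.22 (FDR of 0.114, edgeR exact test) with C2.1 and 2.07 (FDR of 0.649) without it, a reversal of sign, and neither was called. *G0S2*, an inhibitor of triacylglycerol lipase, had 209 counts in C2.1, or 97.7% of its counts, and 4 in the next pool, with a log2 fold change of -6.00 (FDR of 0.366, edgeR exact test). *ACSL1* and 1 of the 2 *CD36* loci also had their highest count in C2.1 (3257 and 292 counts), and these 3 genes were picked after their values were seen. With *LIPA* they were 5.80% of the 69 loci, beside 4.51% of all loci tested.

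In glycerolipid synthesis, *AGPAT5*, an acyltransferase of phosphatidic acid synthesis, was named for the highest mean CPM of its list (without regard to length), with 1106 ± 490 CPM (SD, n = 7) in control and 1104 ± 347 CPM (SD, n = 8) in methionine-rich pools. Its log2 fold change was 0.01. *DGAT2*, the second enzyme able to complete a triacylglycerol, ranged from 1.16 to 16.3 CPM in control and from 1.68 to 34.9 CPM in methionine-rich pools, with medians of 8.82 and 12.7 CPM. This gave a log2 fold change of 1.11, with an FDR of 0.780 in the edgeR exact test (DESeq2 1.12 ± 0.64, SE).

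Among the genes that feed fatty acid synthesis, *ACLY*, which makes cytosolic acetyl-CoA, lay between 108 and 358 CPM in control and between 96.6 and 298 CPM in methionine-rich pools. Its log2 fold change was -0.33 (FDR of 0.967, edgeR exact test). *ME1*, a source of NADPH, was set by 1 pool, with 168 counts in M5.1 and at most 6 in any other.

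In uptake, binding and activation, *DBI*, the acyl-CoA binding protein, ranged from 146 to 335 CPM in control (median 236 CPM) and from 238 to 525 CPM in methionine-rich pools (median 295.5 CPM). The 2 highest pools, M8.2 and M6.2, were methionine-rich and the 4 lowest were control, and the values between them were mixed. Its log2 fold change was 0.52 (FDR of 0.755, edgeR exact test; DESeq2 0.52 ± 0.26, SE), and by cow it was 0.48 (exact permutation p = 0.114).

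*FABP6*, a bile acid binding member of the fatty acid binding protein family, was the 1 listed locus for which every methionine-rich cow exceeded every control cow, beside 2.37% of all loci. It had no count in any control pool, 55 counts in M5.2, 82 in M7.1, and 1 each in M6.1 and M8.2. The separation of cows 6 and 8 from the control cows thus rested on 1 count each, under the floor. It was not called (FDR of 0.206, edgeR exact test), and the cow test gave the smallest p it allows (exact permutation p = 0.0286, adjusted p = 1).

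Fatty acid oxidation had the most tested loci, 23 of 26, with 16 positive and 7 negative log2 fold changes against 53.5% negative over all loci, all uncalled. *ETFB*, a subunit of the flavoprotein that takes electrons from acyl-CoA dehydrogenases, averaged 684 ± 99.8 CPM (SD, n = 7) in control and 693 ± 223 CPM (SD, n = 8) in methionine-rich pools, and its log2 fold change was 0.02. *ETFDH*, which passes these electrons on to ubiquinone, ran from 11.7 to 69.6 CPM in control and from 6.07 to 157 CPM in methionine-rich pools, with medians of 19.5 and 52.3 CPM. The highest of the 15 pools, M8.1, had 1127 counts and the next 559, and C3.2, left out of the test, had 1063 counts, or 609 CPM. A log2 fold change of 1.07 had an FDR of 0.594 in the edgeR exact test (DESeq2 1.11 ± 0.54, SE), and the difference by cow was 0.91 (exact permutation p = 0.171).

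Of the regulators, *SREBF2*, the factor of sterol synthesis genes, was named for its mean CPM by the same rule, at 52.3 ± 17.3 CPM (SD, n = 7) in control and 51.8 ± 16.9 CPM (SD, n = 8) in methionine-rich pools, and a log2 fold change of -0.05. *PPARD*, a nuclear receptor for fatty acids, ranged from 0.178 to 1.98 CPM in control and from 0 to 15.4 CPM in methionine-rich pools, with medians of 0.674 and 0.876 CPM. The methionine-rich values rested on few pools, the top ones holding 111 and 109 counts, against at most 15 counts in control. A log2 fold change of 2.49 had an FDR of 0.510 in the edgeR exact test, and by cow it was 0.93 (exact permutation p = 0.229).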

How the data were processed

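The deposited files hold raw read counts per locus, 1 table for each of 16 blastocyst pools, without normalization. Per the labels and the study's methods, the authors amplified the RNA, mapped single-end reads to the bovine genome bosTau7 with TopHat2 2.0.4, assembled transcripts with Cufflinks 2.0.2 and counted reads with HTSeq. The strand setting was not given in the sources used here. Amplification and few embryos per pool may widen the spread between pools. By the study's supplement, most methionine-rich pools held more blastocysts than any control pool. Estimates with the blastocyst covariate therefore cannot fully part pool size from treatment. Several methionine-rich pools also had lower RNA quality numbers than every control pool with a value. The tables have 22552 rows for 22358 loci, and each locus was entered once. CPM are counts over the pool total, without length, so their order between genes is not one of transcript abundance. Mean CPM served to choose genes to name, and mean log2 CPM to choose the loci of like level. Sums of CPM over genes carry the same limit.

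Loci with a summed CPM of at least 15 over 15 pools were tested with edgeR 4.0.16 in R 4.3.3 (TMM normalization, common and tagwise dispersions, exact test, Benjamini-Hochberg adjustment over 10519 loci). The common dispersion was 1.14. The quasi-likelihood test, DESeq2 1.42.0 (log2 fold change with SE) and limma 3.58.1 (voom, cow as random effect) were alternatives. Two-sided exact permutation tests compared the 8 cows on mean log2 CPM with a prior count of 2. Scripts were tested on simulated data, drawn for the fits with a lower dispersion than that of these pools. Those simulations therefore do not measure power here.

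The genes and lists were chosen with earlier results of these data known. Named are all 10 genes and, per list, every called gene, the one with the smallest exact-test p, the one with the highest mean CPM, and any gene whose cows did not overlap between treatments. No gene annotation of bosTau7 was used here, so positions and sequences are not given.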

Additional observations from a re-analysis of the deposited data

Results flagged for a closer look

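The highest or lowest pool of each treatment was compared with its nearest neighbour for the 9 genes (18 groups of 7 or 8 pools), and a gap was marked where its share of the whole range exceeded Dixon's critical value at 95%. In normally distributed values chance marks about 1 group in 20, and 4 were marked here, each for its highest pool. The gaps were taken on CPM and not on log2 CPM, and values with a long upper tail are marked more often. The 4 marks therefore cannot be set against that rate. *FABP5* was marked in both treatments, at 374 CPM in C2.1 (next highest control pool 12.4 CPM) and at 20.03 CPM in M6.2 (next highest methionine-rich pool 7.60 CPM). The leukocyte marker sum was 2491 CPM in C2.1 and 2.19 CPM in M6.2. *FABP3* was marked in C4.2, with 569 CPM against 250.1 CPM in the next control pool. *PLIN3* was marked in M8.2, with 62.7 CPM against 36.2 CPM, a gap of 0.530 of the range and only just past the limit.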

How the results depend on the processing

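Of the 9 genes, 1 (*FABP5*) was called with 15 pools, with DESeq2 size factors in place of TMM (edgeR exact test, FDR of 0.0775) and with all 16 pools (FDR of 0.0551). In the other settings that kept all cows 0 were called. *FABP5* kept a log2 fold change of -3.71 with the quasi-likelihood test, -3.57 with library totals in place of TMM, -3.70 with no filter on low counts, -3.21 with the pools of a cow summed and -4.89 with the number of blastocysts as a covariate. It was smaller with limma voom (-1.18) and DESeq2 (-0.64), and not tested with at least 10 counts in every pool. Leaving out each cow in turn gave 0 to 1 calls, with 0 without cows 2, 5, 7 or 8. *FABP5* then had log2 fold changes of -3.39 without cow 5, -3.83 without cow 7 and -3.38 without cow 8 (FDR of 0.256, 0.222 and 0.247, edgeR exact test). Of the 69 listed loci, 0 were called with 15 pools, 2 with all 16 (*LIPA* and *FABP6*), and 0 to 1 with a cow left out (*LIPA*, without cow 1, 3 or 4). Over all loci, 110 calls of 10519 tested became 67 with DESeq2, 55 of 17409 without a filter and 356 of 10803 with all 16 pools. They became 64 of 10236 without C2.1 and 62 to 153 with a cow left out. Calls fell to 0 with the quasi-likelihood test, limma voom, the blastocyst covariate and at least 10 counts in every pool. In these settings 909 (8.64%), 421 (4.0%), 1009 (9.59%) and 262 loci (5.27% of 4970 tested) had an unadjusted p under 0.05.

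The sign of *FABP5* turned without C2.1 (0.086, 0 genes called). Other changes of sign were in genes within 2-fold. *ACSL3* turned to -0.012 with at least 10 counts, -0.75 with all 16 pools, -0.025 with pools summed and -0.019 with the blastocyst covariate, and ranged from -0.22 to 0.16 with a cow left out. With a cow left out, *ACSL4* ranged from -0.45 to 0.063, *FABP3* from -0.43 to 0.072 and *FASN* from -0.167 to 0.013. *FABP3* was 0.15 and *PLIN3* 0.029 with the blastocyst covariate, and *DGAT1* was 0.002 with limma voom. By cow, *ACSL3* differed by -12.0 CPM in place of log2 CPM, by -0.29 with all 16 pools and by -0.057 without C2.1, and with all 16 pools *ACSL4* differed by 0.28 and *DGAT1* by 0.25. The cause was not tested. No paired analysis was possible because each cow was randomly assigned to 1 of the 2 diets. By the methods, the selected cows were balanced by sire, which was not modelled here. Fits over pools take the 2 pools of a cow as separate samples. *ACACA* and *DGAT1* were at or under the floor in 6 of 15 pools each.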
